A study of Mus musculus with 8 samples.

Results

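Glycolysis is the cytosolic pathway that splits glucose into pyruvate, and lactate dehydrogenase then reduces pyruvate to lactate and returns the oxidised cofactor that the pathway needs. Its enzymes act in a fixed order, most steps are carried out by several isozymes from different genes, and hypoxia-inducible factor and Myc are known to drive many of these genes. Developing thymocytes take up more glucose as they proliferate before the double positive stage, and small resting double positive thymocytes are known for low glucose uptake.

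The members were 10 genes of this pathway (Hk1, Hk2, Gpi1, Pfkl, Aldoa, Tpi1, Pgk1, Pgam1, Eno1 and Ldha), taken by symbol from the platform annotation. Of the 12422 probe sets that are no controls, 10 mapped to a member alone, and they stood for 8 of the 10 genes. Hk2 and Aldoa had 2 probe sets each, Hk1, Pfkl, Tpi1, Pgk1, Pgam1 and Ldha had 1, and the annotation used here paired no probe set with Gpi1 or Eno1. After the dimmest 33.3% of the probe sets were left out, 9 of the 10 were tested; the one left out was a dim probe set of Hk2.

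Total RNA of mouse double positive thymocytes, immature T cells with both the CD4 and the CD8 coreceptor, was hybridised to 8 arrays whose probe sets carry Affymetrix-style names. The 4 groups of 2 arrays were a control, an overnight control, and cells labelled Valpha2 or Vbeta5, names of variable segments of the T cell receptor alpha and beta chain; the series title speaks of engaging the receptor with antibodies. Each group has an array titled Data 1 and one titled Data 2, called array 1 and array 2 here. The sources used here do not give strain, genotype, age, antibody clone, dose or culture time. Nothing says that the 2 arrays of a group came from separate animals or cultures, so a p-value reflects the spread between single arrays, which may be technical. In RNA of a whole cell suspension, fewer cells of a type and less RNA per cell cannot be told apart.

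The values are the authors' normalized signals, a linear intensity whose trimmed mean lay between 250.14 and 250.16 on every array. The arrays were not alike in other respects. The log2 ratio of the 3' to the 5' control probe set of Gapdh, which rises when RNA is degraded or copied incompletely, stood at 1.72 for Valpha2 array 1, 0.95 for overnight control array 1 and 0.48 for Vbeta5 array 1, and at -0.28 to -0.09 for the remaining 5. Overnight control array 1 also had the highest median signal, 110.35 against 73.8 to 91.6 on the others. The summed signal of 9 measured double positive markers was 33394.6 and 20347.6 on the Vbeta5 arrays and 47224.7 to 63667.1 on the other 6.

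Stretches upstream of Ldha, Pgk1 and Pgam1 are shown because enzyme genes are textbook carriers of the motif ACGTG, the core that hypoxia-inducible factor binds and that also lies inside the Myc motif CACGTG. Between the overnight control arrays Ldha and Pgk1 differed by 1.27 and 1.51 on the log2 scale and Pgam1 by 0.35. Whether the motif goes with such a gap was not tested. Capitals mark each ACGTG or its reverse complement, and each stretch runs from base -160 to base -21 relative to the start (RefSeq, GRCm38.p6, plus strand).
Ldha, chr7:46845644-46845783: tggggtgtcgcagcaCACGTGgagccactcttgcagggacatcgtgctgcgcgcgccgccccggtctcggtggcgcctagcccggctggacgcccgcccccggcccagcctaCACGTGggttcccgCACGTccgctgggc
Pgk1, chrX:106186940-106187079: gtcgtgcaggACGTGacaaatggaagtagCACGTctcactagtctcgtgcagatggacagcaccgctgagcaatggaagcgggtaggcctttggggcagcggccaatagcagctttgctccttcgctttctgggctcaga
Pgam1, chr19:41911711-41911850: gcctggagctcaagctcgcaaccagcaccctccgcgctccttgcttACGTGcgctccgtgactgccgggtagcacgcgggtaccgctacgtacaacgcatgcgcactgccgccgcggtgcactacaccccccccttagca

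In Ldha the motif occurred at 3 places, and at the first 2 it formed the palindrome CACGTG, where matches on both strands overlap. In Pgk1 it occurred at 2 places, once on each strand, and in Pgam1 at 1. Searched on both strands over the 250 bases before each start, ACGTG was found for 5 of the 10 member genes (Hk2, Aldoa, Pgk1, Pgam1 and Ldha) and for 18.49% of the 27025 genes in the promoter table. CACGTG was found for 1 member, Ldha, and for 6.86% of the genes. Ldha and Aldoa also have a start without a match. Hk1, Pfkl and Tpi1, the other measured members, had no ACGTG there. No link of the motif to the gaps between arrays was tested. The matches are of letters and show no binding.

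None of the 9 tested probe sets passed the test in any of the 4 comparisons, while the 2 arrays of the overnight control differed by up to 8.01-fold in signal among these probe sets (Hk2, from dim signals) and by 5.99-fold in Tpi1. The test was limma on log2(signal + 16.6) over all 8281 tested probe sets, with Benjamini-Hochberg adjustment and a threshold of 0.05. The first steps are described here in pathway order, then the lower steps, then the comparisons.

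Hexokinase, which phosphorylates glucose and holds it in the cell, was represented by 2 genes. Hk1, the form found in most tissues, had signals of 4571.6 and 6972.3 on the control arrays, 6662.0 and 9039.5 on the overnight control arrays, 9127.2 and 7206.4 with Valpha2, and 6983.5 and 6964.0 with Vbeta5. The 2 arrays differed by 1.53-fold in control, 1.36-fold in the overnight control, 1.27-fold with Valpha2 and 1.00-fold with Vbeta5. Neighbours in the order of means (control, Vbeta5, overnight control, Valpha2) did not differ beyond these gaps. Hk2, the form that insulin, hypoxia and growth signals induce in other tissues, had signals of 14.5 and 32.4 in control, 124.2 and 15.5 in the overnight control, 18.2 and 12.4 with Valpha2, and 86.7 and 46.4 with Vbeta5 on its brighter probe set. Control array 1, overnight control array 2 and Valpha2 array 2 lay under the offset of 16.6 and Valpha2 array 1 just above it, where a fold change is understated. The dimmer Hk2 probe set read between 2.8 and 29.6, and it was above the offset on array 1 of the overnight control, Valpha2 and Vbeta5 and on no other array.

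Phosphofructokinase commits sugar to glycolysis. Pfkl, the liver-type subunit, had signals of 502.5 and 391.9 in control, 816.6 and 342.4 in the overnight control, 421.8 and 513.7 with Valpha2, and 783.0 and 396.9 with Vbeta5. Array 1 of the overnight control and array 1 of Vbeta5 were the 2 highest, and the remaining 6 arrays lay between 342.4 and 513.7.

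Aldoa encodes the aldolase that cuts the 6-carbon sugar into 2 trioses. Its brighter probe set read 1466.5 and 854.3 in control, 4079.7 and 740.2 in the overnight control, 2102.7 and 1967.5 with Valpha2, and 3842.7 and 1808.3 with Vbeta5. The overnight control held both the highest and the lowest of the 8 values. The dimmer probe set read 558.4 and 376.2, 1427.1 and 472.1, 935.2 and 850.9, and 1626.3 and 809.4 in the same order of groups. There too the Valpha2 arrays lay close together and above both control arrays, an order whose share among all probe sets was not counted. Both probe set names carry the suffix f, which marks probes that match several similar sequences, so their signal may include relatives of Aldoa.

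Tpi1, the isomerase that interconverts the 2 trioses, had the widest gap between overnight control arrays on the log2(signal + 16.6) scale. Its signals were 651.3 and 542.1 in control, 1994.8 and 333.0 in the overnight control, 753.9 and 865.1 with Valpha2, and 1715.2 and 511.7 with Vbeta5. The 2 overnight control arrays were the highest and the lowest of all 8.

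The step after Tpi1 belongs to Gapdh, which is not on the member list and whose own probe sets here are array controls. Its 3' control probe set read 8926.5 and 8003.0 in control, 12159.8 and 6135.4 in the overnight control, 9486.9 and 8907.9 with Valpha2, and 14562.8 and 9665.1 with Vbeta5, with the same 2 arrays on top. The 5' probe set of the same gene read 6283.2 on overnight control array 1 and 7259.1 on array 2, so the order of those 2 arrays turned with the end of the transcript that was measured.

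Pgk1, the kinase of the first step that yields ATP, read 1127.8 and 1793.1 in control, 4314.9 and 1503.2 in the overnight control, 3964.8 and 3136.5 with Valpha2, and 3562.2 and 2264.6 with Vbeta5. All 4 Valpha2 and Vbeta5 arrays lay above both control arrays, while overnight control array 2 lay between the control arrays. How many of all probe sets had that order was not counted.

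Pgam1, the mutase of the lower pathway, had signals of 263.5 and 398.0 in control, 315.5 and 244.6 in the overnight control, 306.4 and 332.5 with Valpha2, and 375.8 and 533.5 with Vbeta5. Its highest array was Vbeta5 array 2, not an array 1. Ldha, the lactate dehydrogenase subunit that prevails in glycolytic tissue, read 3219.1 and 2744.6 in control, 4014.7 and 1652.7 in the overnight control, 2769.2 and 3102.6 with Valpha2, and 6674.0 and 3965.2 with Vbeta5. Its mean was 5320 ± 1915 (SD, n = 2) with Vbeta5 and between 2834 and 2982 in the other 3 groups.

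**Figure D1:**
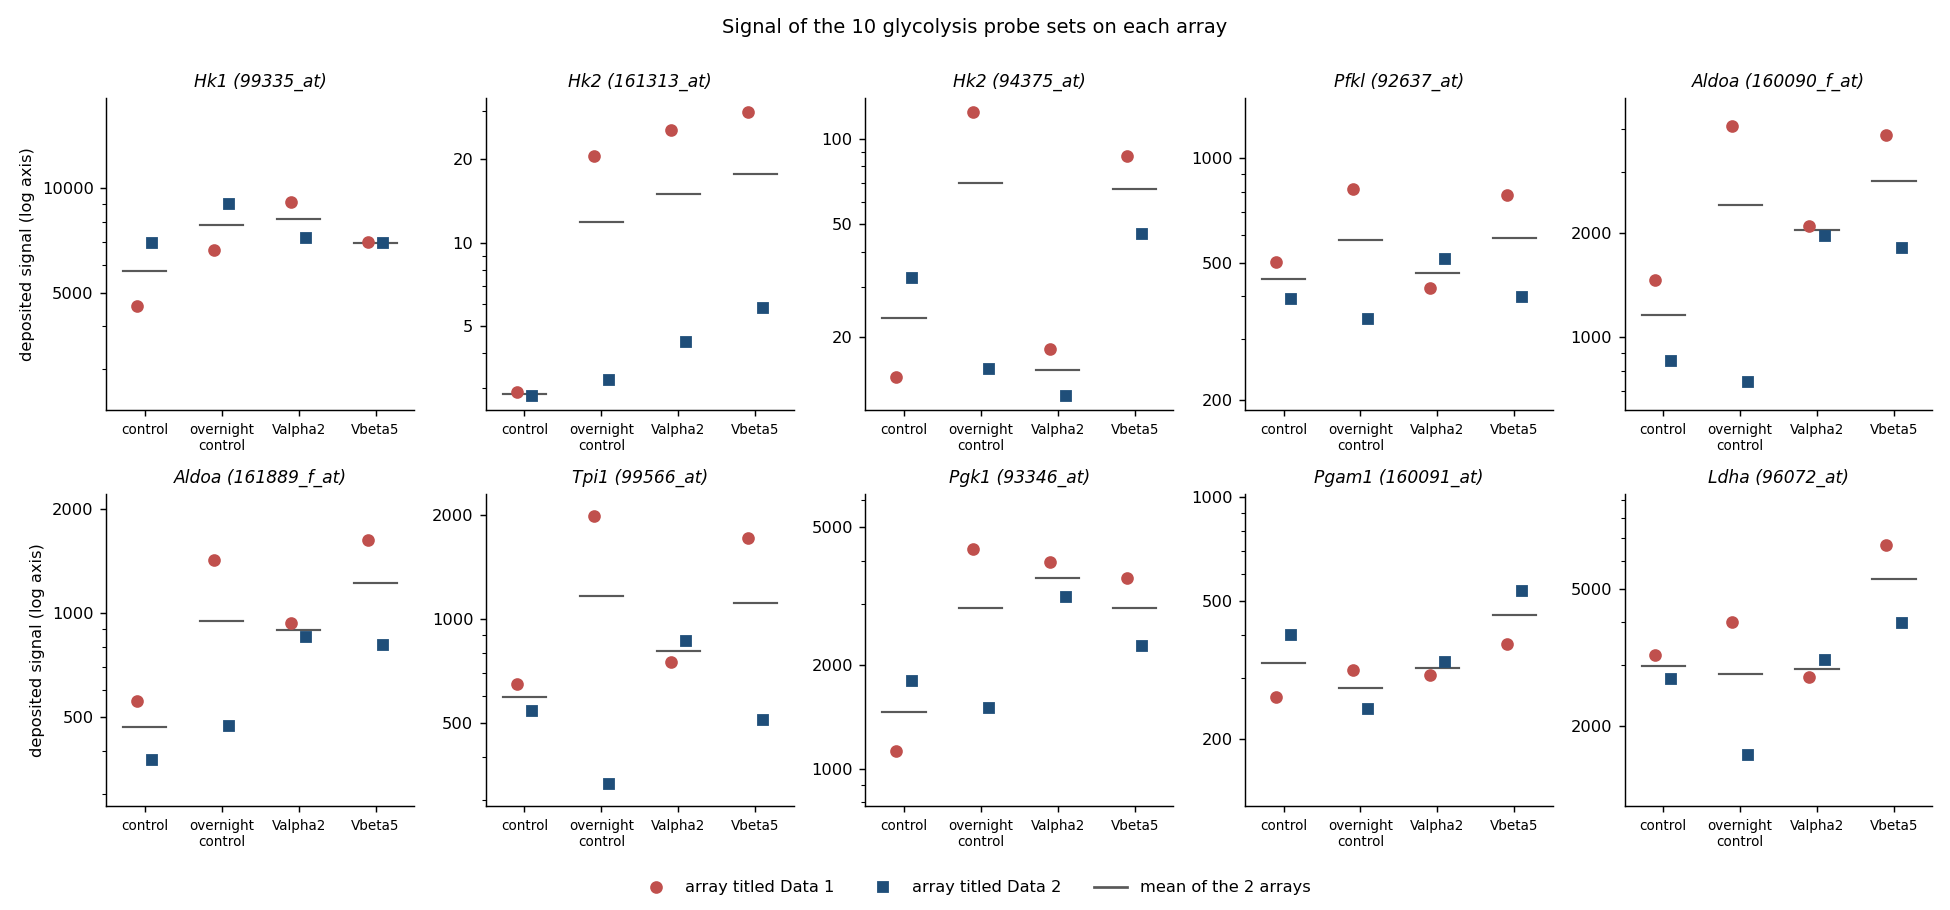
Deposited signal (log axes, differing between panels) of the 10 probe sets on each of the 8 arrays, with circles for array 1, squares for array 2 and a line at the mean of the 2. The circles of the overnight control and Vbeta5 are the 2 highest points in the brighter Hk2 probe set, Pfkl, both Aldoa probe sets, Tpi1 and Ldha. Hk1, the dimmer Hk2 probe set, Pgk1 and Pgam1 do not show this.

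The members separated by how their 2 arrays differed within a group. In the overnight control, 7 of the 9 tested probe sets were over 2-fold higher on array 1 than on array 2 (log2 scale with the offset of 16.6), against 16.3% of all tested probe sets, and 0 were over 2-fold lower (7.19% of all). These were Tpi1 (2.52 on the log2 scale), Aldoa (2.44 and 1.56), Hk2 (2.13), Pgk1 (1.51), Ldha (1.27) and Pfkl (1.21). Pgam1 differed by 0.35 and Hk1 by -0.44. The median over the 9 was 1.51, against 0.07 over all 8281.

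In Vbeta5 the same contrast gave a median of 0.75 over the members and -0.01 over all, and 2 of 9 were over 2-fold higher on array 1 (4.48% of all) and 0 over 2-fold lower (5.36% of all). The 2 were Tpi1 (1.71) and the brighter Aldoa probe set (1.08). In control and in Valpha2 none of the 9 was over 2-fold higher on array 1 (2.69% and 5.31% of all) and none over 2-fold lower (3.3% and 6.11%), with medians of 0.23 and 0.10. The 9 differences in Valpha2 ran from -0.27 to 0.34, and the dimmer Hk2 probe set, which was not tested, differed by 1.00 there. With each array shifted to a common log2 median, 5 of 9 were over 2-fold higher on overnight control array 1 (7.21% of all). That shift moved the difference of all probe sets between the overnight control arrays from 0.07 to -0.36.

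Other transcripts were also high on overnight control array 1. Each of 8 marker lists of other cell types had its highest summed signal there. Macrophage and monocyte markers (7 of 7 on the array, 4 of them under a signal of 100 on every array) summed to 821.8 and 317.6 in the overnight control, 264.1 and 283.0 in control, 355.5 and 348.0 with Valpha2, and 603.8 and 637.2 with Vbeta5. Fibroblast and endothelium markers (7 of 7, 3 under 100) summed to 1838.5 and 605.5, 822.4 and 748.6, 894.1 and 772.5, and 1262.3 and 933.1 in that order of groups. Over the 8 arrays the sums ran from 440.1 to 1256.6 for dendritic cells (6 of 6, 2 under 100), 322.9 to 906.8 for B cells (5 of 6, 0 under 100) and 184.2 to 759.3 for granulocytes (7 of 7, 3 under 100). They ran from 262.5 to 671.3 for erythroid cells (5 of 7, 2 under 100) and 76.0 to 255.2 for thymic epithelium (5 of 6, 4 under 100). For NK and gamma delta T cells they ran from 24.0 to 121.4 (3 of 7, all 3 under 100). Several of these sums thus come largely from dim probe sets, on the array with the highest median signal. The part of RNA quality, of signal level or of such cells in the glycolysis values was not tested.

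**Figure D2:**
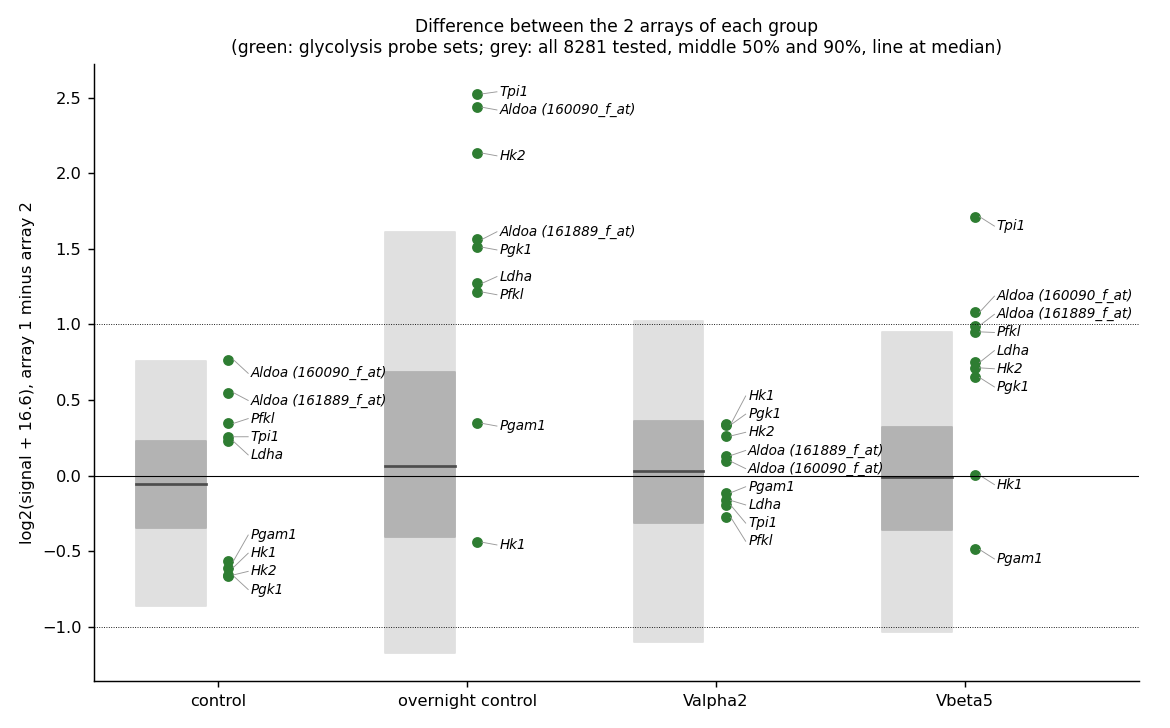
Difference in log2(signal + 16.6) between array 1 and array 2 of each group, with a green point for each tested glycolysis probe set and grey bars for the middle 50% and 90% of all 8281 tested probe sets; dotted lines mark 2-fold. In the overnight control 7 of 9 points lie above the upper dotted line, and in Valpha2 all 9 lie between -0.27 and 0.34.

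The overnight control was first compared with the control, and the labels do not say how the cells of either group were handled. No member passed (0 of 9, with 0.217% of all tested probe sets called by limma), and none had an unadjusted p under 0.05 (750 of all 8281). The groups overlapped in every member, whereas 21.6% of all tested probe sets were higher and 16.3% lower without overlap. Pgk1 differed by 0.83 ± 0.44 (SE; limma adjusted p = 0.596), the dimmer Aldoa probe set by 0.82 ± 0.47 (adjusted p = 0.615) and Hk1 by 0.46 ± 0.27 (adjusted p = 0.616). When overnight control array 1 was left out, Pgk1 differed by 0.08, the dimmer Aldoa probe set by 0.04 and Hk1 by 0.68, and when its partner was left out they differed by 1.59, 1.60 and 0.24. When control array 1 was left out they differed by 0.50, 1.10 and 0.15, and when control array 2 was, by 1.16, 0.55 and 0.76. The other members turned sign when an array or a setting was changed. Between arrays numbered 1 all 9 were higher in the overnight control, 5 of them over 2-fold (18.1% of all) and 0 over 2-fold lower (8.38%), led by Hk2 (2.18, from a control signal under the offset) and Pgk1 (1.92). Between arrays numbered 2 only Hk1 (0.37) and the dimmer Aldoa probe set (0.32) were higher, none over 2-fold (2.2% of all), and none was over 2-fold lower (3.41%). The median over the members was 0.46, 1.59 when overnight control array 2 was left out and -0.36 when its partner was; over all tested probe sets it was 0.10.

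Setting Vbeta5 against the overnight control addresses antibody engagement of the receptor, and Ldha had its smallest p here. Ldha was higher by 0.99 ± 0.38 (SE) on the log2 scale, a 1.99-fold difference, with an unadjusted p of 0.025 that did not pass (limma adjusted p = 0.458, 0.053 to 0.999 over the alternatives). It was higher within arrays numbered 1 (0.73) and within those numbered 2 (1.25), although the groups overlapped, since Vbeta5 array 2 (3965.2) lay just under overnight control array 1 (4014.7). The difference was 1.63 when overnight control array 1 was left out and 0.36 when its partner was, and it was 0.62 when Vbeta5 array 1 was left out. Pgam1 differed by 0.66 ± 0.30 (adjusted p = 0.607), by 0.24 and 1.07 within the numbers, and both Vbeta5 arrays lay above both overnight control arrays, as in 15.8% of all tested probe sets; no member lay wholly below (15.2% of all). It was 0.41 without Vbeta5 array 2. No member passed (0 of 9, with 0.616% of all called), and Ldha alone had an unadjusted p under 0.05 (698 of all 8281). Of the 9 double positive markers, Rag1 and Rag2, which build the recombinase of receptor genes, fell and passed in this comparison, and the part of this in the member values was not tested. The median over the members was 0.26 (-0.01 over all), 1.25 and -0.54 when the first or the second overnight control array was left out, and -0.09 and 0.62 when the first or the second Vbeta5 array was. Among arrays numbered 1 none of the 9 was over 2-fold higher (6.26% of all) or lower (8.57%), and among those numbered 2 the brighter Aldoa probe set, Pgam1 and Ldha were over 2-fold higher (6.46%) and none lower (4.53%).

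For Valpha2 against the overnight control, 0 of 9 members passed and 0% of all tested probe sets were called. No member had an unadjusted p under 0.05 (132 of all 8281). Hk2 differed by -1.08 ± 0.73 (SE; limma adjusted p = 1.0), with 1 of the 4 signals far above the rest, and by -0.01 without overnight control array 1. Pgam1 differed by 0.19 ± 0.30 (limma adjusted p = 1.0), and by 0.02 without overnight control array 2. The 2 array numbers disagreed: 8 of 9 members were lower with Valpha2 among arrays numbered 1 and 7 of 9 were higher among those numbered 2. Over 2-fold, 2 were lower and 0 higher among arrays numbered 1 (9.66% and 4.55% of all), while 3 were higher and 0 lower among those numbered 2 (2.58% and 1.63%). No member's groups were without overlap (10.5% of all higher, 10.2% lower). Tpi1 went from -1.38 to 1.33 and the brighter Aldoa probe set from -0.95 to 1.39 between them. The median over the members was 0.11 (-0.02 over all), 0.82 without overnight control array 1 and -0.67 without array 2.

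Vbeta5 against Valpha2 does not use the mean of the overnight control. Its standard errors and p-values still rest on a spread estimated over all 8 arrays, the overnight control arrays included. Hk2 was 1.34 ± 0.73 (SE) higher with Vbeta5 on the log2 scale (limma adjusted p = 0.689), Ldha 0.81 ± 0.38 (0.626) and Pgam1 0.47 ± 0.30 (0.766), while Hk1 differed by -0.22 ± 0.27 (0.918). None of the 9 passed, with 0.278% of all called, and none had an unadjusted p under 0.05 (677 of all 8281). With limma fitted to the 4 compared arrays alone, 2 of the 9 had an unadjusted p under 0.05 (783 of all 8281) and 0 passed. The median residual SD of the members was 0.38 in that fit and 0.64 in the fit to all 8 arrays. In Hk2, Ldha and Pgam1 both Vbeta5 arrays lay above both Valpha2 arrays (21.7% of all), and in Hk1 both lay below (18.5% of all). Hk2 differed by 1.57 and 1.12 within the numbers and Ldha by 1.26 and 0.35. The size for Hk2 is uncertain because its Valpha2 signals lay near or under the offset: it was 1.87 with a floor in place of the offset, and 0.99 or 1.70 when Vbeta5 array 1 or 2 was left out. In the same order Ldha was 0.43 or 1.18 and Pgam1 0.71 or 0.22, and Hk1 was -0.05 or -0.39 when Valpha2 array 1 or 2 was left out. The upper-pathway members Pfkl, Aldoa and Tpi1 were higher with Vbeta5 among arrays numbered 1 (0.79 to 1.17) and lower among those numbered 2 (-0.74 to -0.07). Over 2-fold, 3 of the 9 were higher among arrays numbered 1 (7.66% of all) and 1 among those numbered 2 (4.67%), and 0 were lower in either (6.64% and 3.66%). The median over the members was 0.36 (0.02 over all), 0.85 without Vbeta5 array 2 and -0.17 without Vbeta5 array 1. The overnight control is a compared group in 3 of the 4 comparisons and its arrays enter the spread of all 4, so these results are not independent of each other.

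**Figure D3:**
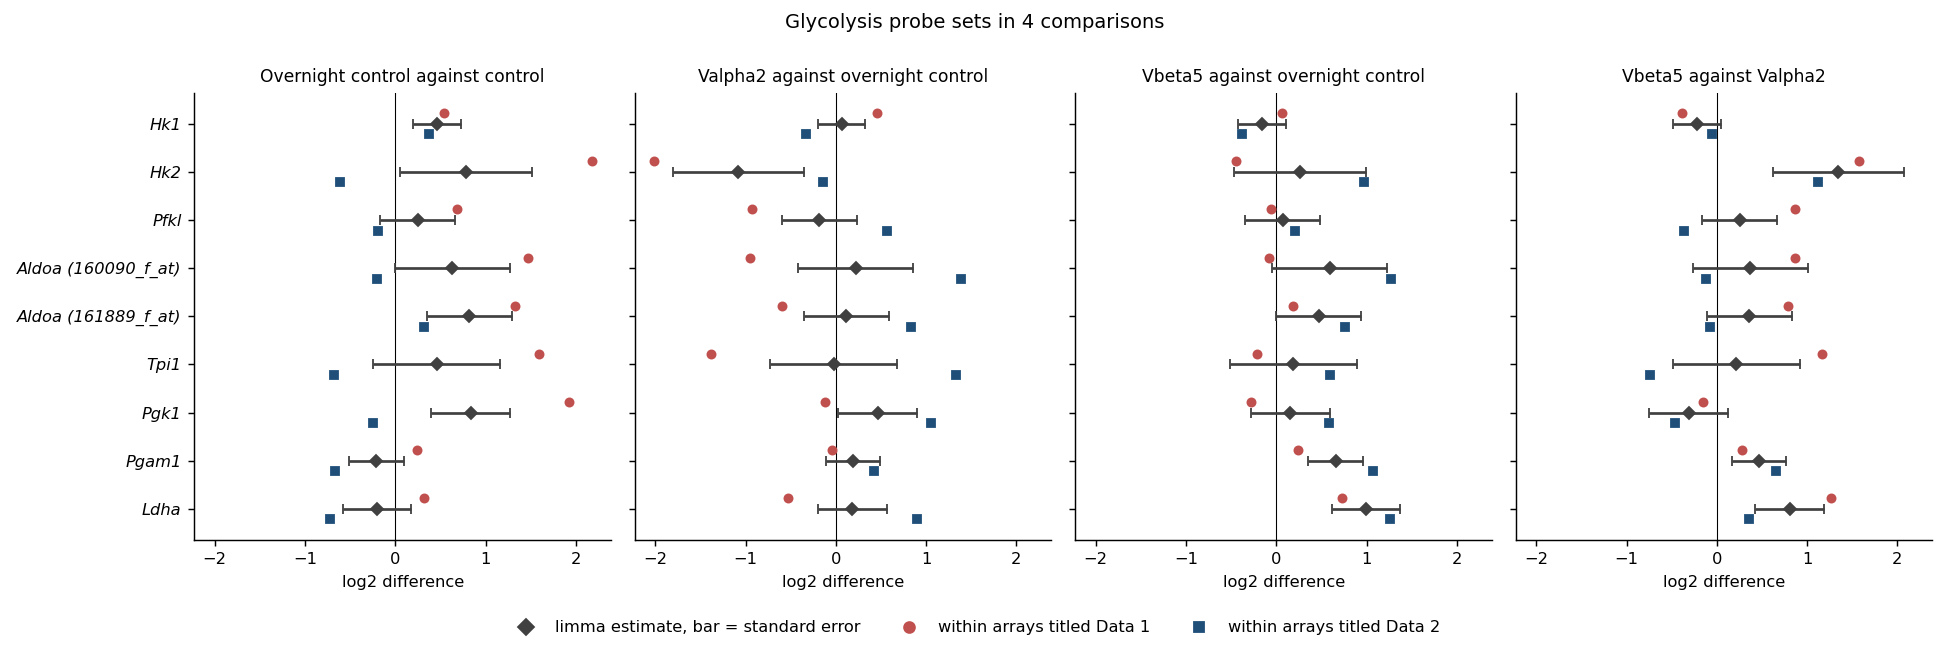
Log2 differences of the 9 tested probe sets in 4 comparisons, with diamonds for the limma estimate and its standard error (8 arrays), circles for the difference within arrays numbered 1 and squares within those numbered 2. In the first 3 panels circles and squares lie on opposite sides of 0 for most members, and Ldha and Pgam1 lie above 0 in both for Vbeta5 against either group; no estimate passed the threshold and 25 of the 36 turned sign under an alternative.

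The rest of the pathway was read from fixed lists with 1 probe set per gene, the brightest. None of 10 tested genes for other glycolytic enzymes passed in any of the 4 comparisons, nor did any of 8 genes for glucose and lactate transport or flux control, 5 for entry of pyruvate into mitochondria, 6 of the pentose phosphate pathway, 2 of gluconeogenesis, 12 of the hypoxia response or 9 transcription factors. For Vbeta5 against the overnight control their medians were 0.16, -0.04, -0.30, 0.17, 0.19, -0.33 and 0.14 in that order, against -0.01 over all 6102 genes. In that comparison 4, 1, 0, 1, 0, 3 and 2 of them had an unadjusted p under 0.05 with limma, as had 698 of all 8281 tested probe sets.

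Eno3 and Tkt are described because each had the smallest p of its list in any comparison. That choice favours genes with small gaps between the arrays of a group. Their gaps therefore cannot be set against those of the members, which were not chosen by p. How many of all probe sets had both Vbeta5 arrays above the other 6 was not counted. Eno3, the muscle-type enolase of the step that Eno1 catalyses in most tissues, read 525.5 and 676.2 with Vbeta5 against 258.2 and 170.7 in the overnight control, 260.6 and 308.0 with Valpha2, and 172.0 and 176.9 in control. Both Vbeta5 arrays lay above the other 6. Its difference from the overnight control was 1.43 ± 0.30 (SE) and did not pass (limma adjusted p = 0.0733); it passed when the arrays numbered 1 of every group but the control were left out (adjusted p = 0.0165). Tkt, the transketolase of the pentose phosphate pathway, read 1127.8 and 818.5 in control, 462.2 and 603.3 in the overnight control, 538.2 and 790.9 with Valpha2, and 1235.9 and 1302.9 with Vbeta5. Both overnight control arrays lay below both control arrays, and both Vbeta5 arrays lay above the other 6 (1.24 ± 0.27 against the overnight control, limma adjusted p = 0.0863).

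Ldhb, the partner subunit of Ldha that prevails in oxidative tissue, was chosen after its values were seen, as were Pfkp, Pkm and Hif1a. It read 743.1 and 728.9 with Vbeta5 against 1656.9 and 1972.0 in the overnight control, 1998.8 and 1136.7 with Valpha2, and 1413.3 and 1341.8 in control. Both Vbeta5 arrays were the lowest of the 8, opposite to Ldha, whose highest array was Vbeta5 array 1. The share of all probe sets with both Vbeta5 arrays lowest was not counted. The difference from the overnight control was -1.28 ± 0.27 (SE; limma adjusted p = 0.078) and that from Valpha2 was -1.02 ± 0.27 (0.233). The first passed without either Valpha2 array (adjusted p = 0.0358 without array 1 and 0.0336 without array 2) and without the 3 arrays numbered 1 (0.0306).

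Pfkp, the platelet-type phosphofructokinase subunit, differed by 0.84 ± 0.31 and 0.70 ± 0.26 (SE) on its 2 probe sets for Vbeta5 against the overnight control, and neither passed (limma adjusted p = 0.445 and 0.435). On the brighter probe set its signals were 664.2 and 997.8 with Vbeta5 and 326.6 to 553.6 on the other arrays. Pkm, the pyruvate kinase gene of the last step before Ldha, repeated the pattern of Tpi1 and Aldoa on its brighter probe set, with 3833.0 and 1350.4 in the overnight control, 4263.7 and 2006.9 with Vbeta5, 3247.1 and 2217.4 in control, and 2198.1 and 2686.6 with Valpha2.

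**Figure D4:**
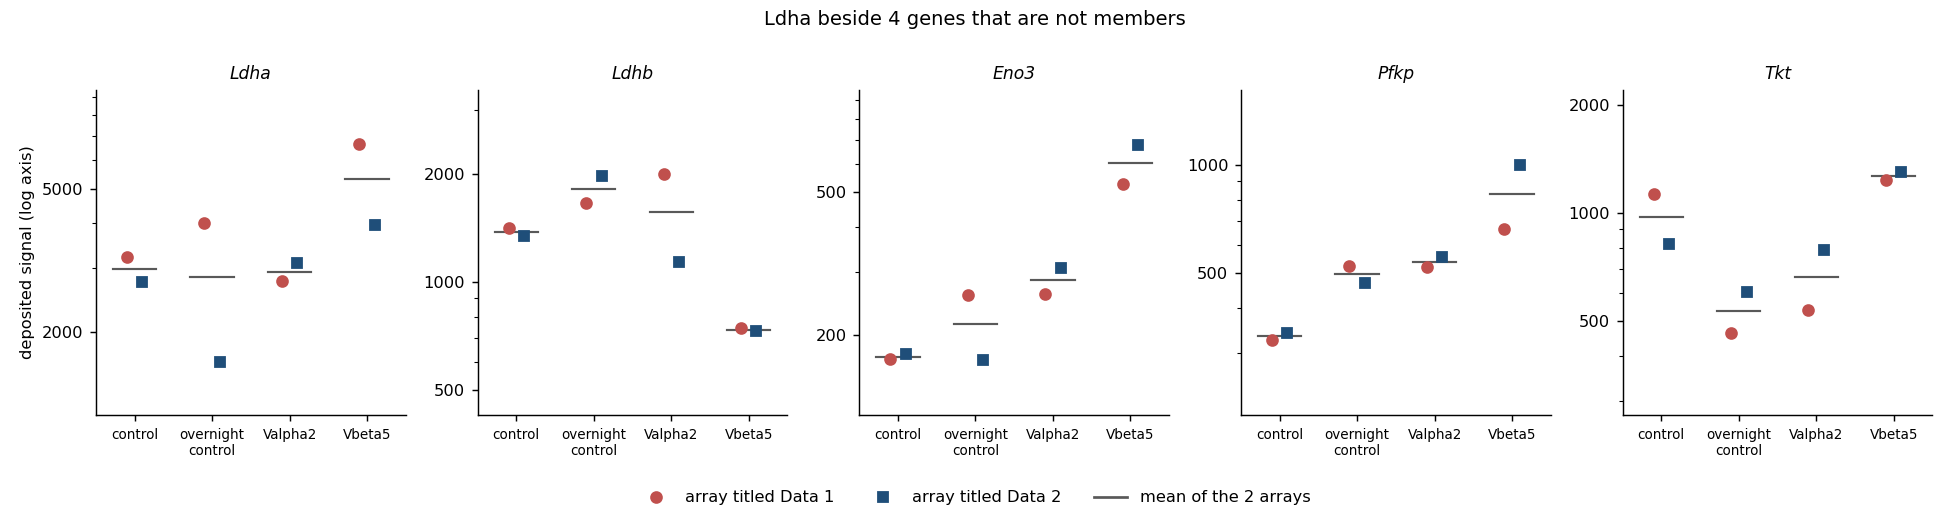
Deposited signal (log axes, differing between panels) of Ldha and of 4 genes that are no members, with circles for array 1, squares for array 2 and a line at the mean of the 2. The Vbeta5 arrays are the 2 lowest in Ldhb and the 2 highest in Eno3, Pfkp and Tkt, whereas in Ldha overnight control array 1 lies between them.

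Among regulators, Hif1a, the inducible subunit of hypoxia-inducible factor, read 4174.4 and 5186.9 with Vbeta5 on its brighter probe set and 2681.2 to 3314.8 on the other 6 arrays. Both of its probe sets carry the suffix f, so their signal may include similar sequences. It differed from the overnight control by 0.67 ± 0.21 (SE; limma adjusted p = 0.284) and on its dimmer probe set by 0.70 ± 0.21 (0.262). The median of the 12 hypoxia genes in that comparison was -0.33. Of the 3 with an unadjusted p under 0.05, Hif1a and Ndrg1 were higher and Mxi1 was lower (-0.69 ± 0.25, limma adjusted p = 0.393). Myc read 29.2 and 109.1 with Vbeta5 and 33.5 and 86.7 in the overnight control. Ndrg1, a hypoxia-inducible gene, read on the probe set with its smallest p 584.6 and 362.9 in the overnight control and 128.4 and 220.3 in control (1.37 ± 0.34, adjusted p = 0.163). Pdk3, a kinase that inhibits pyruvate dehydrogenase, read 628.5 and 916.5 with Vbeta5 and 400.5 and 386.9 in the overnight control (0.92 ± 0.26, adjusted p = 0.224). Nr4a1, a nuclear receptor induced by receptor signalling, read 3275.5 and 5184.0 with Vbeta5 against 533.9 and 778.3 in the overnight control (2.65 ± 0.53, adjusted p = 0.0648).

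Genes whose array pattern was nearest to the mean of the members were looked up by the root mean square difference of centred log2 signals over the 8 arrays. The 5 nearest of 7357 named probe sets that are no members were those of Ryk (0.13), Serpina6 (0.13), Amz2 (0.15), Smr2 (0.15) and Mypop (0.16), where the median of all was 0.56. They were chosen for nearness to that pattern, so each was also higher on overnight control array 1 than on array 2. Amz2, for example, read 344.0 and 107.5. Several of the 5 were dim: over the 8 arrays Ryk read 40.7 to 139.5, Serpina6 27.4 to 100.3 and Smr2 17.0 to 87.9. Among the members, Pfkl (0.22) and Ldha (0.29) lay nearest to the mean pattern and Hk1 (0.55) and Pgam1 (0.46) were among the 3 farthest, together with Hk2 (0.48). For single members the nearest genes were Ddx17 for Hk1 (0.07), Ssx2ip for Pfkl (0.10), Ccnc for Pgam1 (0.10), Atp9a for Ldha (0.11), S1pr1 for Pgk1 (0.15), Gkap1 for Aldoa (0.23), Hk2 with Tbc1d10a (0.23) and Tpi1 with Mbl1 (0.23).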

How the data were processed

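The authors deposited 1 table of normalized intensity per probe set for 8 arrays, per the labels; the sources used here name no software, method or scaling target. The signal was used as deposited. Control probe sets (66) were left out, 16.6 was added before log2 (this offset is the 20th percentile of positive signals), and the dimmest 33.3% by mean were dropped, which left 8281. A fold change is on that scale and understates changes of dim probe sets. Of 12422 probe sets, 10833 had 1 gene symbol, updated by identifier to RefSeq (GRCm38.p6, names and promoters only), 396 had several and 1193 had none. Groups were fitted together with limma 3.58.1 in R 4.3.3 (1 mean per group, eBayes with trend, 4 residual degrees of freedom, two-sided, Benjamini-Hochberg within a comparison); the fit was tested on simulated data. An exact permutation test of 2 against 2 arrays cannot reach 0.05 and was not run. The number of arrays limits the precision.

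The members, lists and tests were chosen with earlier results of these data known. Every member probe set is described; a log2 difference is given where it passed or kept its sign in every alternative (11 of 36 pairs of probe set and comparison). Of each pathway list, the gene with the smallest p was eligible. Alternatives changed the scaling (quantile, or one median for all arrays), the offset (8.3, or a floor), the filter (none, or the dimmest 50% dropped), the fit (no trend, a replicate block, a fit to the compared arrays) and the arrays (each omitted in turn, and the arrays numbered 1 of all groups but the control omitted together); Aldoa was also averaged over its probe sets. The counts of array 1 against array 2 and the values within an array number were chosen after their values were seen. The same holds for the genes Ldhb, Pfkp, Pkm, Hif1a, Myc and Mxi1.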

Additional observations from a re-analysis of the deposited data

How the results depend on the processing

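No member passed under any of the 18 alternatives in any comparison, and the counts of members past the threshold were 0 throughout. Leaving out 1 array, with a lone array taken to vary like the others, moved the member median between -0.36 and 1.59 (overnight control against control), -0.54 and 1.25 for Vbeta5 and -0.67 and 0.82 for Valpha2 against the overnight control, and -0.17 and 0.85 for Vbeta5 against Valpha2. With the arrays numbered 1 of all groups but the control omitted together the medians were -0.36 (overnight control against control), 0.76 and 0.83 for Vbeta5 and Valpha2 against the overnight control, and -0.07 for Vbeta5 against Valpha2. Of the 36 member differences, 25 turned sign under an alternative; the cause was not tested.

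The array numbers share no stated source. Deviations of same-numbered arrays correlated at 0.10 to 0.35 across probe sets. With the replicate block, the member medians stayed at 0.46, 0.26, 0.11 and 0.36, and all called probe sets went from 18 to 107, 51 to 125, 0 to 0 and 23 to 90 in the order of the report. Eno3, Tkt, Ldhb and Nr4a1 passed for Vbeta5 against the overnight control under the block (limma adjusted p = 0.0338, 0.0362, 0.029 and 0.00309). Over all alternatives the calls ranged from 0 to 123, 0 to 169, 0 to 1 and 0 to 90.

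The settings for the array 1 counts were chosen after seeing the data. Members over 2-fold higher on array 1 numbered 5 to 7 for the overnight control (7.21% to 20.11% of all). For Vbeta5 there was 1 after quantile normalization (4.19% of all) and 2 or 3 otherwise (2.43% to 6.59% of all). Signals near the offset limit Hk2.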
